A study of Rattus norvegicus with 16 samples.

Results

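The genes described here are 10 myeloid genes of the rat brain: Trem2, Tyrobp, Gpnmb, Cd68, Itgam, Aif1, Csf1r, Cx3cr1, Lgals3 and Cd14. They were taken by name, as every probe whose gene symbol is one of these. This gave 23 probes of 45904 probes with a listed gene, and 10 genes of 16974. The 10 genes were chosen with earlier results of these data known, so shares set beside all genes below are descriptions. RNA came from male rats of the inbred strain LOU/C/Jall, which the series examines for candidate genes of successful aging, and no other strain was measured. There were 4 groups of 4 samples: young hippocampus, old hippocampus, young frontal cortex and old frontal cortex. Old rats were 26 months old, and the young rats are given as 5 months in the sample labels and as 3 months in the design text. All rats were anaesthetised with isoflurane before decapitation, so each sample is a frozen piece of dissected tissue and holds every cell type of that piece. Samples are named here by the letter code in their titles: Y, Z, AA and AB for young rats, while old rats have AF, AG, AH and AI. Each code occurs once in each region, and the labels do not say whether a code is 1 animal, so p-values measure the spread between these samples.

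Microglia are the resident macrophages of the brain and clear debris, synaptic material and dying cells. Trem2 is a lipid-sensing surface receptor with no signalling tail of its own, and Tyrobp (DAP12) is the membrane adaptor through which it recruits the kinase Syk. In mice, signalling through this pair is needed for microglia to take on the gene programme seen around amyloid and damaged myelin, in which lysosomal and phagocytic genes such as Gpnmb, Cd68 and Lgals3 are raised. Csf1r, the receptor for CSF1 and IL-34, keeps microglia alive, and Cx3cr1, the receptor for neuronal fractalkine, is a marker of their resting state. Border macrophages and blood myeloid cells also use most of these genes. In whole tissue, fewer cells of a type and less RNA per cell cannot be told apart.

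The start-site regions of 4 members whose levels rose with age when both regions were averaged, and of Cx3cr1, are shown so that their sequence can be set beside the values that follow. RefSeq (build GRCr8) gave a window of 250 bases before to 50 bases after the start for 7 of the 10 members. The regions are Trem2 at chr9:20151730-20152029, minus strand; Gpnmb at chr4:79340878-79341177, plus strand; Cd68 at chr10:54882392-54882691, minus strand; Itgam at chr1:192089342-192089641, plus strand; and Cx3cr1 at chr8:128677017-128677316, minus strand. Each is printed 5′ to 3′ on the gene's strand, with every GAGGAA or its reverse complement TTCCTC in capitals. These letters are the purine-rich core bound by PU.1, the transcription factor that defines the myeloid lineage.
Trem2: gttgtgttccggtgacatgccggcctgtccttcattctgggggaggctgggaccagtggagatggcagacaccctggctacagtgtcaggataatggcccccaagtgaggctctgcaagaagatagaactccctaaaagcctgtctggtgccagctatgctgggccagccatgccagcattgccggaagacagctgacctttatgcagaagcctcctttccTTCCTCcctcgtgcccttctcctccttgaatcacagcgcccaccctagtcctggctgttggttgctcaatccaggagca
Gpnmb: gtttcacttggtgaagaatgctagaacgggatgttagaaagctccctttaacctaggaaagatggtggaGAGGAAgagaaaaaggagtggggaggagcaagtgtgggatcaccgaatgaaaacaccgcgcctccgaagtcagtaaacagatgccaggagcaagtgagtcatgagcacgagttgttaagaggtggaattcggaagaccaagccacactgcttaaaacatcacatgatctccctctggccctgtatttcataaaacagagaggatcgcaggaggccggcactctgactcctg
Cd68: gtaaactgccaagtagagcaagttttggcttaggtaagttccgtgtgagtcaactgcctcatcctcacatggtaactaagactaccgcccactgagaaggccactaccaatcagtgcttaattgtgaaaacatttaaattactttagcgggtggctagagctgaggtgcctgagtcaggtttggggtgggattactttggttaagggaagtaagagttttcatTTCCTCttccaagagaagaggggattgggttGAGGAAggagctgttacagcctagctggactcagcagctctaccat
Itgam: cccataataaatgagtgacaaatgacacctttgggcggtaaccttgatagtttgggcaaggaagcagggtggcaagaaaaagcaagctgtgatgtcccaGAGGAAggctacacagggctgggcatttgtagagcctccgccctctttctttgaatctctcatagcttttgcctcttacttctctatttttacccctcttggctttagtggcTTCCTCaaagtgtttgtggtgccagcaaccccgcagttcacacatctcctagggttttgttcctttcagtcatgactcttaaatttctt
Cx3cr1: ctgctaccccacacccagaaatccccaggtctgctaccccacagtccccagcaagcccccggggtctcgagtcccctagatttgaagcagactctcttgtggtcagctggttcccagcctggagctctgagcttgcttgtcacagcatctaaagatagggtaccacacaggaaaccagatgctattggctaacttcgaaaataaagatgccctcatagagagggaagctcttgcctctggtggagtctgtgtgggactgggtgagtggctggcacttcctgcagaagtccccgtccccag
On either strand, GAGGAA occurred in 6 of the 7 windows (Trem2, Gpnmb, Cd68, Itgam, Csf1r and Cd14) and in 27.6% of 33469 windows of the same length. Cx3cr1 was the window without it. The Cx3cr1 window lies wholly inside the listed gene (chr8:128661294-128679048), so bases before the gene's listed 5′ end were not searched. The same holds for Cd14 (window chr18:28611109-28611408, gene chr18:28609558-28611409). The Csf1r window begins at chr18:56834129, near the gene's listed start at 56834152. Tyrobp (chr1:94800372-94804307), Aif1 (chr20:3651435-3657341) and Lgals3 (chr15:23099795-23111731) are given by gene position only. The AP-1 letters TGANTCA occurred in 3 of the 7 windows (Trem2, Gpnmb and Cd68) and in 7.3% of all windows, and no match overlapped a GAGGAA. TTGCNNAA, the letters of a C/EBP site, occurred in Itgam and Trem2 and in 10.6% of all windows. TCATGTG, which the MiT factors that run lysosomal genes bind, occurred in Gpnmb and in 3.6% of all windows. CACGTG, and the IRF motif of a pair of GAAA tetramers set 2 bases apart, occurred in 0 of the 7 windows and in 6.4% and 3.9% of all windows. A match is a string of letters and was not tested as a binding site.

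Levels are log2 fluorescence signals of a gene's brightest probe on 1 array per sample, after each array was shifted to a common 75th percentile. A difference of 1 is a doubling, and 10056 of the 16974 genes were bright enough to test, all 10 members among them. Cd14 passed the minimum of 6.49 in 2 of its 4 group means, and the other 9 members passed it in all 4. The mean signal of the negative control spots was 4.99. A gene was called when its limma p, adjusted by the Benjamini-Hochberg method over the 10056 genes, was under 0.05.

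Microglial markers outside the 10 genes were present: of 12 on the array, 11 passed the minimum, with group means of 9.42 to 9.74 for P2ry12 and 8.12 to 8.24 for Tmem119. Their mean deviation from each gene's own average went from -0.12 to 0.15 between young and old hippocampus, and read -0.04 and 0.01 in frontal cortex of the same ages. The age difference was above 0 for 10 of 11 in hippocampus (median 0.296) and for 8 in frontal cortex (median 0.0978). At an unadjusted limma p under 0.05, 6 were higher in hippocampus, against 4.54% of all genes, and 2 in frontal cortex, against 10.3%. None was called within a region, and 1 was called higher in the mean of both, against 2.36%. Of 13 markers of border macrophages and monocytes on the array, 5 passed, and Mrc1, Cd163, Lyve1, F13a1, Ms4a7 and Ccr2 did not. The mean deviation of these 5 was -0.08 in young and 0.13 in old hippocampus and -0.02 and -0.03 in frontal cortex; all 5 had a hippocampal age difference above 0 (median 0.20) and none was called. None of the 13 markers of T, B and NK cells on the array passed. Of 10 neutrophil markers only S100a8 and S100a9 passed, and both were high on old codes AF, AG and AH in both regions and near young levels on AI. Red cell markers were highest on code AF (deviations of 1.32 in hippocampus and 1.75 in frontal cortex). Choroid plexus markers were high on 4 hippocampal arrays, young Y and AB and old AH and AI (deviations of 2.23 to 3.34). Striatal markers were highest on old frontal cortex AG, at 2.19. They were also high on young frontal cortex AA and AB (1.354 and 1.461), against -0.315 and -0.343 on young frontal cortex Y and Z. All 11 oligodendrocyte markers had a frontal cortex age difference above 0 (median 0.43, 5 of them at an unadjusted p under 0.05), against a hippocampal median of 0.12. Of 16 meningeal and mural markers, 14 were lower in old frontal cortex (median -0.79) and 13 in old hippocampus (median -0.25). The part of the microglial, oligodendrocyte, border macrophage, red cell and striatal markers in the results below was not tested. Fits without codes AF and AG, and with choroid plexus or meningeal markers as a covariate, are given where they change a call.

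**Figure D1:**
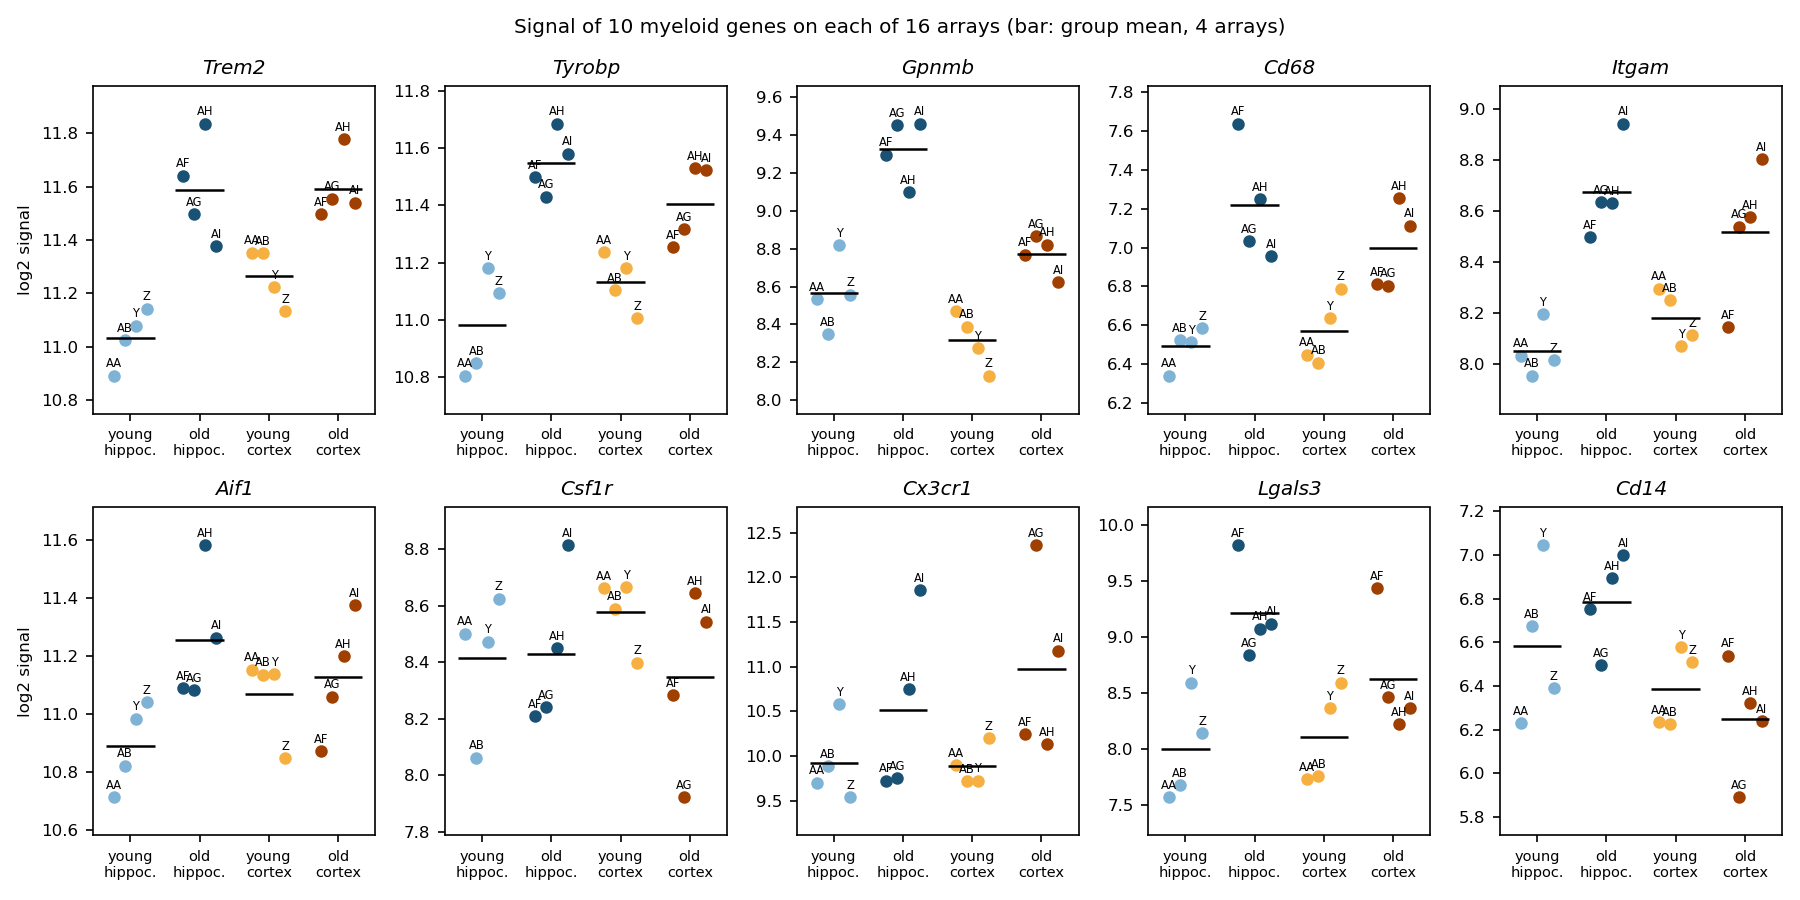
Log2 signal of the brightest probe of each of the 10 genes, in 1 panel per gene with the 4 groups along the horizontal axis; labelled points are arrays by letter code, black bars are group means (n = 4), and each panel has its own vertical scale. Old arrays lie above all young arrays in both regions for Trem2, Tyrobp, Gpnmb and Cd68, and Csf1r and Cd14 show no such gap.

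Trem2 and Tyrobp were both higher in old tissue, by 1.36-fold and 1.34-fold when the 2 regions were averaged. Trem2, the receptor, read 10.89, 11.02, 11.08 and 11.14 in young hippocampus (AA, AB, Y, Z) and 11.64, 11.50, 11.84 and 11.38 in old hippocampus (AF, AG, AH, AI), the order used for every gene below. Every old array was above every young one. In frontal cortex Trem2 read 11.35, 11.35, 11.22 and 11.13 in young rats and 11.50, 11.55, 11.78 and 11.54 in old rats. The groups were again apart, by a gap smaller than in hippocampus. The difference was 0.55 ± 0.10 (SE) in hippocampus, with a limma adjusted p of 0.0702, and 0.33 ± 0.10 in frontal cortex, with an adjusted p of 0.0955. Neither was called, whereas the mean over both regions, 0.44 ± 0.07, was called at an adjusted p of 0.00726.

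Tyrobp, the adaptor, read 10.81, 10.85, 11.18 and 11.09 in young hippocampus and 11.50, 11.43, 11.69 and 11.58 in old hippocampus. Frontal cortex gave 11.24, 11.10, 11.18 and 11.01 in young rats and 11.26, 11.32, 11.53 and 11.52 in old rats. The groups were apart in both regions, but in frontal cortex old AF lay just above the highest young array. The differences were 0.57 ± 0.10 in hippocampus and 0.27 ± 0.10 in frontal cortex (limma adjusted p of 0.0702 and 0.138), and their mean, 0.42 ± 0.07, was called at an adjusted p of 0.00909. The second Tyrobp probe gave 0.46 and 0.24 in the same order, and Trem2 has 1 probe on the array. In hippocampus the call on the pair depended on the processing: with a stricter minimum of 8.16 both had a limma adjusted p of 0.0381. With meningeal markers as a covariate the hippocampal difference of Tyrobp was 0.59, called at a limma adjusted p of 0.0226. Without old hippocampal AI the adjusted p of Trem2 was 0.0341, and without young hippocampal Y that of Tyrobp was 0.0273. Over the fits without 1 array the highest adjusted p of each was 0.341.

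Gpnmb, a glycoprotein of lysosomes and melanosomes that phagocytes induce under lysosomal load, was the one member called within a region. It read 8.53, 8.35, 8.82 and 8.56 in young hippocampus and 9.30, 9.45, 9.10 and 9.46 in old hippocampus, with no overlap. The difference of 0.76 ± 0.11, or 1.70-fold, had a limma adjusted p of 0.0123. In frontal cortex it read 8.47, 8.39, 8.28 and 8.13 in young rats and 8.77, 8.87, 8.82 and 8.62 in old rats, a difference of 0.45 ± 0.11 with an adjusted p of 0.0634. The mean of both was 0.61 ± 0.08 (adjusted p of 0.00169). The hippocampal call was lost without young AA, AB or Z or old AG (limma adjusted p of 0.0711, 0.0691, 0.0628 and 0.0676), and the adjusted p was 0.162 when only the hippocampal arrays were fitted. It was also lost with the mean of a gene's probes (0.0924) and without codes AF and AG (0.065); over all alternatives it ran from 0.00262 to 0.162. A second Gpnmb probe gave 0.68 and 0.42, with an SD of 0.54 over the old hippocampal arrays against 0.17 for the brightest probe.

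Cd68, a lysosomal membrane glycoprotein of macrophages, was close to the minimum in young tissue. It read 6.34, 6.53, 6.52 and 6.59 in young hippocampus and 7.64, 7.03, 7.25 and 6.96 in old hippocampus. Its cortical values were 6.45, 6.41, 6.64 and 6.79 in young rats and 6.81, 6.81, 7.26 and 7.11 in old rats. Old arrays were above young ones in both regions, narrowly in frontal cortex. The differences were 0.73 ± 0.14 and 0.43 ± 0.14, neither called (limma adjusted p of 0.119 and 0.112), and their mean of 0.58 ± 0.10 was called at an adjusted p of 0.0106. With meningeal markers as a covariate the hippocampal difference of Cd68 was 0.76, called at a limma adjusted p that rounds to 0.05.

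Lgals3, galectin-3, a sugar-binding protein that marks phagocytes at damaged membranes and myelin, had the largest hippocampal difference of the 10 genes and a wide spread. It read 7.57, 7.68, 8.59 and 8.14 in young hippocampus and 9.82, 8.84, 9.08 and 9.12 in old hippocampus, with no overlap. Frontal cortex gave 7.73, 7.76, 8.36 and 8.59 in young rats and 9.44, 8.47, 8.22 and 8.37 in old rats, and 3 old arrays lay within the young range. The differences were 1.21 ± 0.29 and 0.51 ± 0.29, with limma adjusted p of 0.310 and 0.321. The mean over both regions, 0.86 ± 0.21, was called at an adjusted p of 0.0336.

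Code AF, which had the highest red cell and S100a8/S100a9 signals in both regions, also gave the highest Lgals3 value in both and the highest Cd68 value in hippocampus. S100a8 was 5.71 to 6.22 in young hippocampus and 8.69, 7.76, 7.28 and 5.95 on old hippocampal AF, AG, AH and AI. Without AF and AG in both regions the mean difference of Cd68 was 0.44 (limma adjusted p of 0.0714) and that of Lgals3 was 0.64 (adjusted p of 0.110). That fit keeps only AH and AI of the old codes, so fewer arrays may also cost a call. It keeps AH, which read 7.28 for S100a8 in hippocampus and 7.88 in frontal cortex. The Lgals3 call was also lost when 1 array was dropped, in 8 of 16 such fits, at limma adjusted p of 0.0511 to 0.0765: without hippocampal AA, AB, Z, AF or AH, or frontal cortex AA, AB or AF. Old code AI, with low S100a8, read 9.12 for Lgals3 in hippocampus, above every young array, and 8.37 in frontal cortex, within the young range.

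Itgam, the alpha chain of complement receptor 3 (CD11b), read 8.03, 7.95, 8.20 and 8.01 in young hippocampus and 8.50, 8.63, 8.63 and 8.94 in old hippocampus, with no overlap. Its cortical values were 8.29, 8.25, 8.07 and 8.11 in young rats and 8.14, 8.54, 8.58 and 8.80 in old rats, where old AF lay within the young range. The differences were 0.63 ± 0.12 and 0.33 ± 0.12 (limma adjusted p of 0.119 and 0.142), and the mean of 0.48 ± 0.09 was called at an adjusted p of 0.0153. Without frontal cortex AF the hippocampal difference was called, at an adjusted p of 0.037, the lowest of the 16 fits without 1 array (highest 0.509). The 4 Itgam probes gave 0.37 to 0.64 in hippocampus and 0.10 to 0.33 in frontal cortex.

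Aif1, the actin-bundling protein Iba1 used to stain microglia, was not called in any age comparison. It read 10.71, 10.82, 10.98 and 11.04 in young hippocampus and 11.09, 11.08, 11.58 and 11.26 in old hippocampus, narrowly apart. In frontal cortex it read 11.15, 11.14, 11.14 and 10.85 in young rats and 10.87, 11.06, 11.20 and 11.38 in old rats, and the groups overlapped. The differences were 0.36 ± 0.13 and 0.06 ± 0.13 (limma adjusted p of 0.654 and 0.820), and their mean was 0.21 (adjusted p of 0.163).

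Csf1r, the survival receptor, gave a difference of 0.01 ± 0.16 in hippocampus, with a 95% interval of -0.34 to 0.36. It read 8.50, 8.06, 8.47 and 8.62 in young and 8.21, 8.24, 8.45 and 8.81 in old hippocampus, and 8.66, 8.59, 8.67 and 8.40 in young and 8.28, 7.92, 8.64 and 8.54 in old frontal cortex. The groups overlapped in both regions. The frontal cortex difference was -0.23 ± 0.16 (limma adjusted p of 0.428), and its 3 probes lay between -0.11 and 0.01 in hippocampus and between -0.34 and -0.23 in frontal cortex.

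Cd14, the lipopolysaccharide co-receptor of monocytes, also overlapped between ages. It read 6.23, 6.67, 7.04 and 6.39 in young and 6.75, 6.49, 6.89 and 6.999 in old hippocampus. Its cortical values were 6.24, 6.23, 6.58 and 6.51 in young and 6.54, 5.89, 6.32 and 6.24 in old rats. The differences were 0.20 ± 0.17 and -0.14 ± 0.17 (limma adjusted p of 0.835 and 0.665). Its 2 probes had opposite signs in hippocampus, 0.20 and -0.13.

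Cx3cr1, the fractalkine receptor, varied more over the 16 arrays than any other member. It read 9.70, 9.89, 10.58 and 9.54 in young hippocampus and 9.72, 9.75, 10.75 and 11.86 in old hippocampus. Frontal cortex gave 9.90, 9.72, 9.72 and 10.20 in young rats and 10.25, 12.36, 10.13 and 11.18 in old rats. The high values were those of old frontal cortex AG and of AI in both regions, and the ages overlapped in both regions. The differences were 0.59 ± 0.47 and 1.10 ± 0.47 (limma adjusted p of 0.821 and 0.188), and their mean was 0.85 ± 0.33 (adjusted p of 0.132). Without AF and AG in both regions that mean was 1.07, with an adjusted p of 0.0443, the lowest of all its alternatives (highest 0.226).

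The Cx3cr1 profile over the 16 arrays was followed by other genes, which were picked after the values were seen. Centred on its own mean, Extl3, a heparan sulphate glycosyltransferase, differed from Cx3cr1 by a root mean square of 0.160, Rassf2 by 0.188 and Cym by 0.255, against 0.840 for the median gene. Tmem47, Lmnb1 and Stambp came next, at 0.314 to 0.347, and Trem2 was at 0.760. Extl3 read 13.38 on old hippocampal AI and 11.42 to 12.29 in young hippocampus. The second Cx3cr1 probe gave age differences of 0.44 and 1.04, close to the 0.59 and 1.10 of the first. With the mean of those 6 genes as a covariate, a setting added after seeing the data, 4 members were called in the mean of both regions. Itgam, at 0.36 against 0.48 without the covariate, and Lgals3, at 0.89 against 0.86, were not (limma adjusted p of 0.057 and 0.0777). The 6 genes had age differences of their own, 0.41 to 0.66 in hippocampus and 0.72 to 1.39 in frontal cortex. This covariate can therefore take up part of an age difference, and a call lost with it cannot be read as a trait of the gene.

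**Figure D2:**
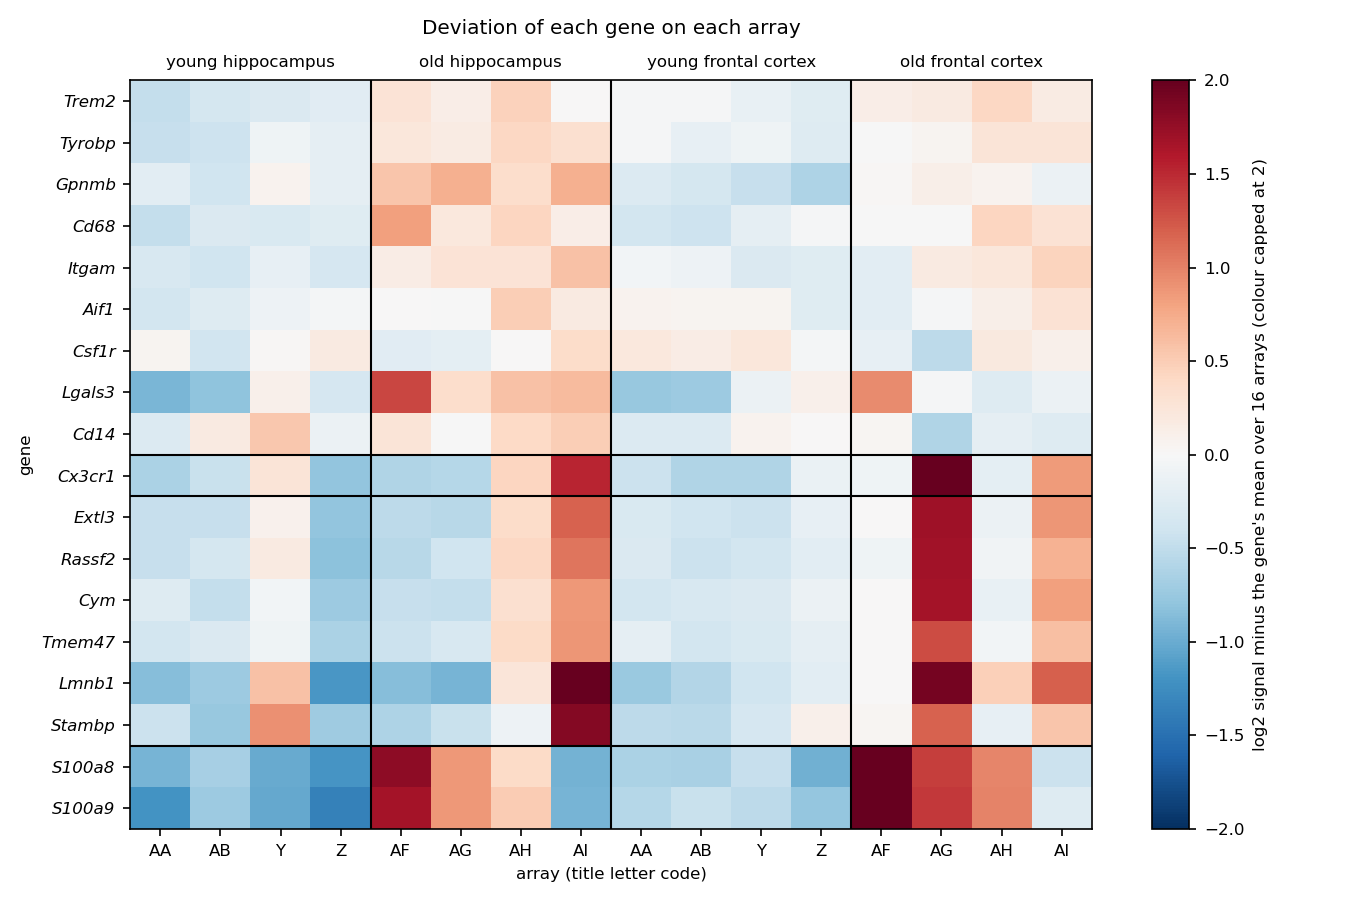
Colour shows log2 signal minus the gene's mean over the 16 arrays, for the 10 genes, the 6 genes nearest Cx3cr1, and S100a8 and S100a9 (vertical axis) on each array (horizontal axis, by group and letter code; colour capped at 2). Cx3cr1 and its 6 neighbours are high on old frontal cortex AG and AI and old hippocampal AI, while S100a8 and S100a9 are high on AF, AG and AH.

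Across the 10 genes, hippocampal differences between old and young rats were all above 0, with a median of 0.58 against 0.01 for all 10056 genes, of which 52.9% were above 0. The groups did not overlap, with old higher, for 7 of the 10 (Trem2, Tyrobp, Gpnmb, Cd68, Itgam, Aif1 and Lgals3), against 2.68% of all genes. At adjusted p under 0.05 limma called 1 of the 10, Gpnmb, against 0.0398% of all genes, which is 4 genes. At an unadjusted p under 0.05, 7 of the 10 were higher, against 4.54%. Because the 10 genes were chosen with earlier results of these data known, their shares here and below may partly restate that choice.

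In frontal cortex 8 of the 10 differences were above 0, against 50.2% of all genes, with a median of 0.33 against 0.00101 for all genes, and Csf1r and Cd14 were below 0. Limma called 0 of the 10 there, against 0.557% of all genes called higher, and 6 of the 10 were higher at an unadjusted p under 0.05, against 10.3%. Old and young arrays were apart, with old higher, for Trem2, Tyrobp, Gpnmb and Cd68, 4 of the 10 against 6.79% of all genes. Averaged over both regions 6 of the 10 were called, all higher, against 2.36% of all genes. These were Trem2, Tyrobp, Gpnmb, Cd68, Itgam and Lgals3. Dropping any 1 of the 16 arrays did not end the call of Trem2, Tyrobp, Gpnmb, Cd68 or Itgam.

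**Figure D3:**
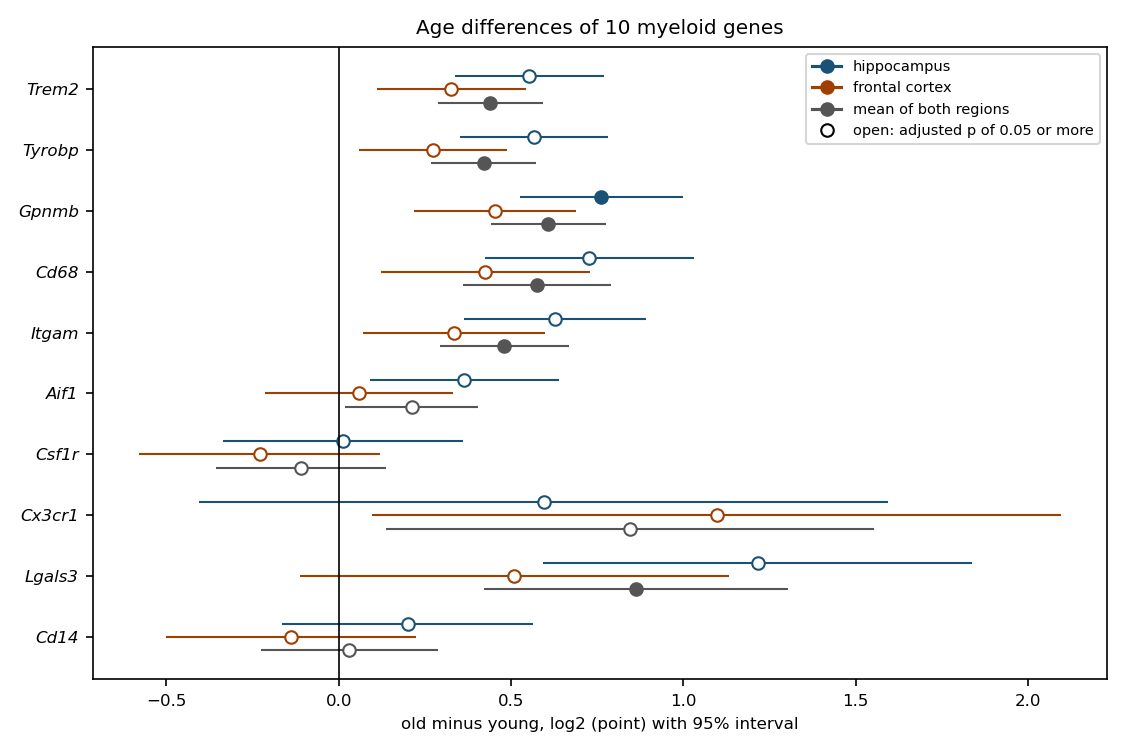
Old minus young difference in log2 signal for the 10 genes in hippocampus, in frontal cortex and averaged over both regions, with 95% limma intervals; filled points had an adjusted p under 0.05. The averaged intervals of Trem2, Tyrobp, Gpnmb, Cd68, Itgam and Lgals3 lie above 0, as do those of Aif1 and Cx3cr1, which were not called after adjustment; those of Csf1r and Cd14 include 0.

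Whether age effects differed between regions was tested as the difference of the 2 age differences. For 9 of the 10 genes the hippocampal value was the larger, against 54.3% of all genes, and Cx3cr1 was the exception at -0.50. Limma called 0 of the 10 and 0 of all genes, with an adjusted p of 0.999 for each member. Before adjustment, 266 genes (2.65%) and no member had a limma p under 0.05, and the lowest member p was 0.0571, for Tyrobp at 0.29 ± 0.14. Its 95% interval ran from -0.01 to 0.60.

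Between regions, limma called in young rats 0 of the 10 against 13.8% of all genes. At an unadjusted p under 0.05 1 of the 10, Gpnmb, was higher in hippocampus (0.25 ± 0.11) against 11.9% of all genes, and 1, Trem2, was lower (-0.23 ± 0.10) against 13.2%. In old rats Gpnmb and Cd14 were called higher in hippocampus than in frontal cortex, 2 of the 10 against 9.65% of all genes. Gpnmb differed by 0.56 ± 0.11 (limma adjusted p of 0.00203) and every old hippocampal array was above every old cortical one, as for 8.95% of all genes. Cd14 differed by 0.54 ± 0.17 (adjusted p of 0.0385) with overlapping groups. Its old frontal cortex mean of 6.25 was below the minimum, and it was kept through its 2 hippocampal means (6.59 and 6.79). The Cd14 difference fell to 0.19 with choroid plexus markers as a covariate (adjusted p of 0.504) and to 0.38 with array weights (adjusted p of 0.172). With no minimum the limma adjusted p of Cd14 was 0.0625, and with only the arrays compared 0.0557. With the mean of a gene's probes it was 0.0571, and without codes AF and AG 0.0653. Its call was lost in 6 of the 16 fits without 1 array, those without old hippocampal AF, AH or AI or old frontal cortex AG, AH or AI (limma adjusted p of 0.0516 to 0.123). Trem2 levels in the 2 old regions had a difference with a 95% interval of -0.22 to 0.21.

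Ordered by level within each gene, Trem2, Tyrobp, Cd68, Itgam, Aif1 and Lgals3 had their lowest group mean in young hippocampus and their highest in old tissue. Trem2 means were 11.03 ± 0.11 (SD, n = 4) and 11.26 ± 0.11 in hippocampus and frontal cortex of young rats, and 11.59 ± 0.20 and 11.59 ± 0.13 in those of old rats. Gpnmb ran from 8.32 ± 0.15 in young frontal cortex through 8.57 ± 0.19 in young hippocampus and 8.77 ± 0.11 in old frontal cortex to 9.33 ± 0.17 in old hippocampus. The middle pair of Gpnmb groups overlapped, and so did young hippocampus and young frontal cortex for Trem2.

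All 23 probes passed the minimum. In hippocampus 20 of 23 differences were above 0, against 47% of the 28735 probes tested, and for 13 of 23 the old and young arrays were apart with old higher, against 2.3%. In frontal cortex 18 of 23 were above 0, against 47.7%, and 5 of 23 were apart, against 5.92%. The 3 probes at or below 0 in hippocampus were 2 of Csf1r and 1 of Cd14. Probes of 1 gene were measured in the same samples, so they are no replicates of the age effect. The brightest Itgam probe, used for all Itgam levels, has no transcript listed for it. That the Itgam probes read the same transcript is therefore not shown.

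**Figure D4:**
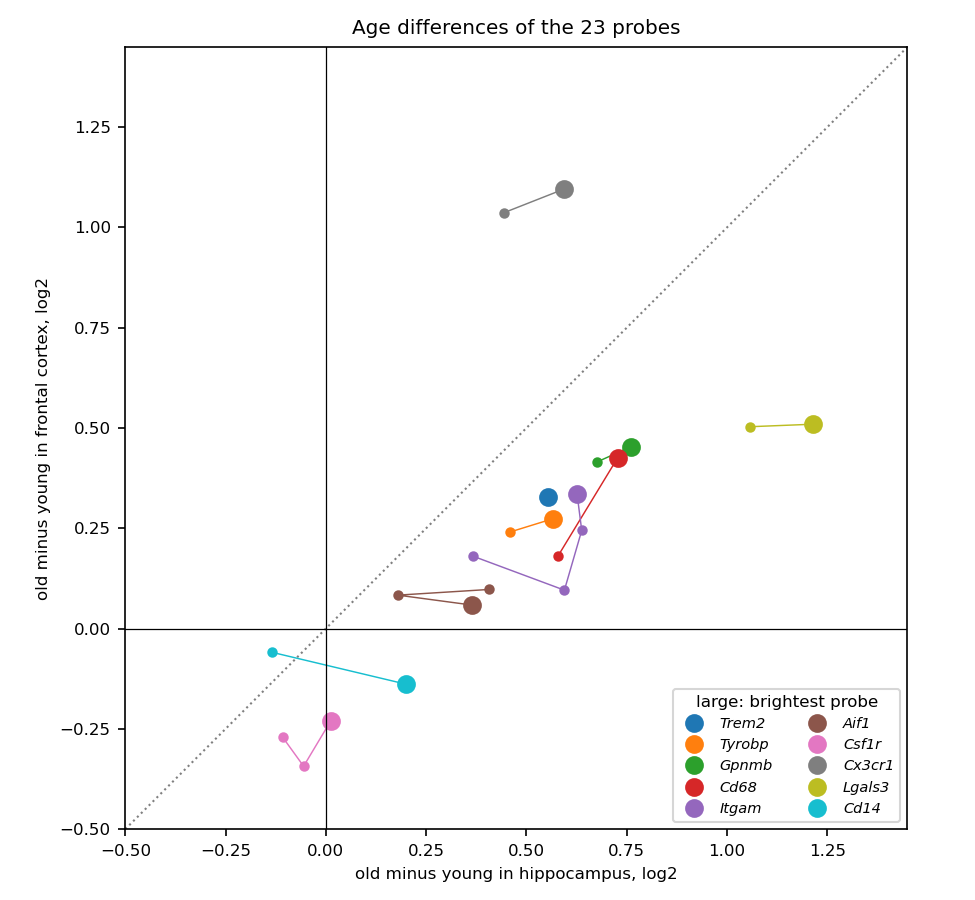
Old minus young difference in log2 signal of each of the 23 probes in hippocampus (horizontal axis) and frontal cortex (vertical axis); lines join probes of 1 gene, large points are brightest probes, and equal differences lie on the dotted line. Probes of Tyrobp, Gpnmb, Cd68, Itgam and Lgals3 lie above 0 in both regions and below the dotted line, those of Cx3cr1 above it, and all of Csf1r below 0 in frontal cortex.

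Genes of Trem2 and Tyrobp signalling were tested next. Of 11 signalling genes bright enough to test, none was called in either region and 1 was called, higher, in the mean of both: Pik3r1, a regulatory subunit of PI3-kinase (0.34 ± 0.09, limma adjusted p of 0.0466), against 2.36% of all genes called higher in that mean. Their median difference was 0.19 in hippocampus and 0.15 in frontal cortex. Ptpn6, the phosphatase SHP-1, gave 0.39 ± 0.11 and 0.16 ± 0.11, and Rac2, a GTPase of phagocytes, 0.31 ± 0.11 and -0.02 ± 0.11. Card9, an adaptor that relays Syk signals, gave 0.19 and 0.15, and Adam17, a protease that sheds Trem2, -0.05 and -0.21. Syk and Plcg2 were below the minimum.

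Of 12 ligands and partners of the 10 genes, C3, complement component 3, whose cleavage product iC3b is bound by the Itgam receptor, was called higher in both regions. It had group means of 9.05 in young and 10.56 in old hippocampus (1.503 ± 0.145, limma adjusted p of 0.000155) and of 9.07 and 10.24 in frontal cortex (1.166 ± 0.145, adjusted p of 0.00489). Itgb2, the beta chain that pairs with Itgam, gave 0.47 ± 0.17 and 0.23 ± 0.17. Il34, a neuronal ligand of Csf1r, gave -0.22 ± 0.10 and -0.27 ± 0.10, and Cx3cl1, the ligand of Cx3cr1, -0.08 ± 0.09 and -0.17 ± 0.09. None of these 3 was called.

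Of 11 myeloid transcription factors none was called in either region or in their mean. Spi1, which encodes PU.1, gave 0.59 ± 0.24 in hippocampus and 0.26 ± 0.24 in frontal cortex, but it was kept only through old frontal cortex (6.55), and both hippocampal means, 5.84 and 6.43, were below the minimum. Cebpb gave 0.20 ± 0.15 and 0.41 ± 0.15, and Mitf, a MiT factor, -0.04 ± 0.12 and 0.37 ± 0.12. Runx1 gave 0.22 and -0.10, Irf5 0.23 and 0.08, and Bhlhe41 0.24 and 0.57. Of 9 genes of homeostatic microglia none was called either, and their median differences were 0.12 and 0.0055. P2ry12, the ADP receptor that guides microglial processes, gave 0.30 ± 0.10 and 0.23 ± 0.10, and its mean of 0.26 had a limma adjusted p of 0.0535. Slc2a5, a fructose transporter, gave 0.35 and 0.36, Tgfbr1, a TGF-beta receptor, 0.21 and 0.28, and Cd164 -0.23 and -0.08.

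Of 18 genes raised in mouse disease-associated microglia, none was called within a region, and 15 were above 0 in hippocampus and 8 in frontal cortex, against 52.9% and 50.2% of all genes. Ctss, the lysosomal protease cathepsin S, and Fth1, the ferritin heavy chain, were called higher in the mean of both regions (0.39 ± 0.08 and 0.24 ± 0.06, limma adjusted p of 0.0209 and 0.0334), 2 of 18 against 2.36% of all genes. B2m, the light chain of MHC class I, gave 0.26 and 0.08, and Spp1, kept only through young frontal cortex, 0.70 and -0.90. Of 11 phagocytic and Fc receptors 1 was called in that mean, Clec12a, an inhibitory myeloid lectin (0.49 ± 0.13, adjusted p of 0.0464), against the same 2.36%; its young frontal cortex mean of 6.31 was below the minimum. Fcgr1a and Fcgr2a, receptors for IgG, gave 0.33 and -0.18, and 0.15 and 0.22, and Scarb1, a lipoprotein receptor, 0.04 and 0.17. Fcer1g, the Fc receptor gamma chain, an adaptor of the same kind as Tyrobp, gave 0.37 ± 0.11 and 0.11 ± 0.11. List medians over the 6 lists ran from 0.12 to 0.22 in hippocampus and from -0.03 to 0.17 in frontal cortex, against 0.01 and 0.00101 for all genes.

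**Figure D5:**
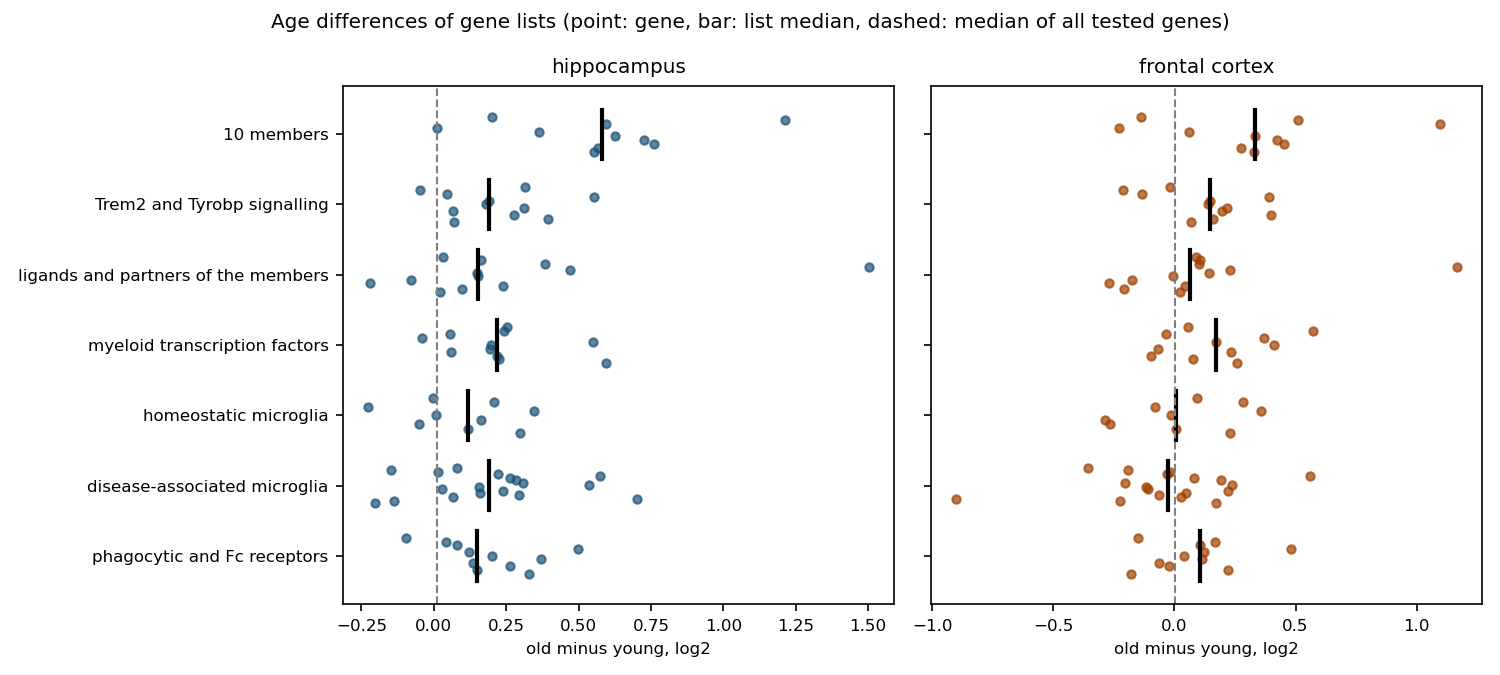
Old minus young differences in log2 signal for the tested genes of the 10-gene set and of each of the 6 other lists, in hippocampus and frontal cortex; points are genes, bars are list medians and the dashed line is the median of all tested genes. C3 is the highest point of the ligand list in both regions.

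The genes whose profile over the 16 arrays was most like the mean of Trem2 and Tyrobp were C1qa, St3gal4, Unc93b1, Ptpn6, Ncf4 and Cyp2d1. After centring, their root mean square differences from that mean ran from 0.105 for C1qa to 0.134 for Cyp2d1, against 0.316 for the median gene and 0.251 for a flat profile. C1qa, a chain of complement C1q made by microglia, gave 0.61 in hippocampus and 0.37 in frontal cortex. Among the other members Aif1 was nearest (0.147), then Itgam (0.169) and Cd68 (0.203). Gpnmb (0.299), Csf1r (0.337), Cd14 (0.374), Lgals3 (0.518) and Cx3cr1 (0.74) were all farther from that mean than a flat profile. The points share arrays, tissue pieces and array scaling, so this likeness is a description.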

How the data were processed

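The authors hybridised Cy3-labelled RNA to 1-colour Agilent arrays and, per the submitters' processing notes, read them with Agilent Feature Extraction; its version was not stated. The deposited values are log2 signals of 62976 spots. Their minimum (4.94), median (6.774), upper quartile (9.171) and maximum (17.77) are the same on every array, so the arrays were already on a common scale. Other scalings therefore had little left to change and are weak checks. The normalisation behind the deposited values is not named in the sources used here. A second deposited table has 16 value columns that match no sample by name, and these were not used.

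Each array was shifted to a common 75th percentile of gene probes (9.42 to 9.44 before the shift). A gene was its probe of highest mean over the 16 arrays, kept when its highest group mean passed the 40th percentile of probe means, 6.49. The 4 group means of 16 arrays were fitted with limma 3.58.1 in R 4.3.3, with 12 residual degrees of freedom and moderated variances, and p-values were adjusted over 10056 genes. There were 6 comparisons: age in each region, their mean, their difference, and region at each age. The fit was tested on simulated data. Replicate arrays of 1 group correlated at 0.975 to 0.994, and no depth applies to arrays: their number limits the precision.

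The 10 genes and all lists were chosen with earlier results of these data known. Named from the lists were the 3 genes of smallest p per list and age comparison and every gene called. The alternatives were other scalings, filters, probe summaries, variance models, a replicate block and leaving out arrays. The windows before start sites are from RefSeq, build GRCr8.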

Additional observations from a re-analysis of the deposited data

Results flagged for a closer look

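Aif1 on young frontal cortex array Z read 10.85, set apart from the other 3 arrays of its group, which read 11.14 to 11.15. Of 40 groups of 4 arrays checked for 1 array far from the others, 1 was flagged, and chance gives about 2.

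Spp1, osteopontin, which disease-associated microglia of mice and many other cells make, had age differences of opposite sign in the 2 regions. Its group means were 5.70 in young and 6.40 in old hippocampus and 6.59 in young and 5.69 in old frontal cortex, and old and young arrays were apart in both. The age difference in hippocampus minus that in frontal cortex was 1.60 ± 0.36, with a limma unadjusted p of 0.000457 and an adjusted p of 0.999, so it was not called. Spp1 passed the minimum of 6.49 only through young frontal cortex, and the other 3 group means were below it, so these differences compare values at or under that minimum. It was 1 of 38 genes checked for opposite age differences.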

How the results depend on the processing

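The direction of no member difference that had been called was turned by the 11 planned settings, the 4 chosen after seeing the data (codes AF and AG left out, and 3 covariates) or the 16 fits without 1 array, and 47 of 60 member differences stayed on their side of the threshold throughout. In hippocampus the count of called members (1 of 10) was 3 with the stricter minimum, 3 with an intensity trend and robust variances, 2 with array weights, 3 with meningeal markers as a covariate and 0 when only the arrays compared were fitted; without 1 array it ran from 0 (without young AA, AB or Z or old AG) to 2 (without young Y, old AI or frontal cortex AF). With the mean of a gene's probes the 1 called was Tyrobp (limma adjusted p of 0.045), and without codes AF and AG it was Itgam (0.0334), not Gpnmb. In frontal cortex it was 0 in every setting and 0 to 1 without 1 array (Gpnmb was called, at a limma adjusted p of 0.027, without old AI). Between regions in old rats the count (2) was 1 with no minimum, the stricter minimum, array weights, only the arrays compared, codes AF and AG left out or choroid plexus markers as a covariate, and 1 to 3 without 1 array. With the mean of a gene's probes that count stayed 2, but Cd14 was not called (limma adjusted p of 0.0571) and Itgam was (0.0479). In the mean of both regions the count was 4 to 6 in the other settings and 5 to 6 without 1 array. Over all genes, the called count in hippocampus (main value 4) ran from 1 to 7 without 1 array and from 1 to 14 in other settings. In frontal cortex (97) it ran from 4 to 738 and from 2 to 170, and in the mean of both (399) from 104 to 986 and from 157 to 1038. The 170 and 1038 are counts of probes, from the fit with each probe as its own feature. Among the fits without 1 array, the highest counts of frontal cortex and of the mean came without old frontal cortex AI. The lowest of those fits came without young frontal cortex Z and AB. In the other settings the lowest frontal cortex count, 2, came with codes AF and AG left out. The lowest count of the mean there, 157, came with the 6 genes nearest Cx3cr1 as a covariate. The title codes were not taken as pairs: the correlation of deviations for the same code ran from -0.17 to 0.28 and was over 0.1 for 3 of 8 codes, which were also the 3 that matched best with themselves (AA, AF and AI). Single genes such as S100a8 and Lgals3 do follow the code in both regions, so arrays of these codes may be linked. With the code as a replicate block (consensus correlation 0.0506) the counts of members called were 1, 0 and 6, and the mean difference of Lgals3 had a limma adjusted p of 0.0405. The causes were not tested. Signals near the minimum, as for Cd14 and Cd68, limit what can be read from them.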
